A study of Macaca fascicularis with 56 samples.

Results

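The interferon-stimulated antiviral genes followed here were 42 genes of the type I interferon response, listed by symbol. Each was read by the probe set that carried only that symbol and had the highest mean level over the 56 arrays. Of the 42 genes, 40 were tested, among 15953 genes tested in all. LY6E, which encodes a membrane protein of the LY6 family, lay below the filter on low values, with log2 levels from -0.17 to 3.61, and STAT2, a transcription factor that carries the interferon signal, was not analysed here. IFITM1, which encodes a membrane protein that hinders viral fusion, also had 1 probe set shared with other genes, which was not used.

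Whole blood from 14 cynomolgus macaques was drawn at hours 0, 2, 4 and 8 and its RNA read once per animal and hour on human genome arrays. There were 6 animals with LR12 (Y31309 to Y31314), 4 with the control peptide (Y31305 to Y31308) and 4 with vehicle (Y31301 to Y31304). LR12 is a peptide taken from TREML1 that occupies ligands of TREM-1, a receptor of neutrophils and monocytes that amplifies inflammation, and per the series title its control is a scrambled LR12 given after endotoxin. The labels name neither strain, sex nor age, give no doses, and do not say whether vehicle animals received endotoxin or when hour 0 fell in the protocol. Because human probes read macaque RNA, levels of 1 gene were compared between groups and never between genes. Sums over cell marker genes are the exception and weigh the strongest probe sets most. Levels are log2 intensities, changes are log2 differences from hour 0 with the standard error (SE) of limma, and a gene was called at a Benjamini-Hochberg adjusted p below 0.05 over all genes tested.

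Endotoxin is sensed by TLR4, and 1 branch of its signalling, through TICAM1 and TBK1, leads to interferon beta. Type I interferons bind the IFNAR1 and IFNAR2 receptor, whose kinases JAK1 and TYK2 activate transcription factors, among them STAT2, which with IRF9 switches on many genes. Their products sense viral RNA, block its translation, degrade or edit it, trap virus particles, or feed back on the signal. In blood the program is known to rise within hours and then to fall.

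The arrays fell into 2 sets by the signal of the poly-A control transcripts, 24 high and 32 low, with no array between 7.25 and 7.67 on the log2 scale. The labels name no batch. High arrays numbered 2, 0, 2 and 2 of 4 in the vehicle arm at hours 0, 2, 4 and 8, then 3, 1, 4 and 3 of 4 in the peptide control arm and 1, 1, 2 and 3 of 6 in the LR12 arm. The median over all genes also moved: in the LR12 arm it was -0.18, -0.29 and -0.27 at hours 2, 4 and 8 relative to hour 0, and in the peptide control arm -0.04, -0.26 and -0.11. Members are set beside that shift below. Markers of blood cells, whose values close the results, moved as well, and in whole blood fewer cells of a type and less RNA per cell cannot be told apart.

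In the LR12 arm the members peaked at hour 4. There 16 of the 40 rose, against 12.8% of all genes tested, and 0 fell, against 30%; at an unadjusted p below 0.05 limma had 19 higher and 2 lower. The median member change was 0.75 and 33 of 40 were above 0. At hour 2 the count was 3 up (12.1% of all genes) and 2 down (25.9%), with a median of 0.01, and at hour 8 it was 5 up (10.9%) and 3 down (25.6%), again with a median of 0.01. The hour with the highest LR12 mean was hour 4 for 28 members, hour 2 for 6, hour 0 for 4 and hour 8 for 2. With each array centred on its median, 26 members rose and 0 fell at hour 4, 9 rose and 1 fell at hour 2, and 9 rose and 0 fell at hour 8, so the 3 falls at hour 8 were not called with that scaling. With only the arrays of low poly-A signal, 14 rose and 1 fell at hour 4.

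In the peptide control arm the same hour stood out, with fewer calls among 4 animals. At hour 2, 3 members rose (4.41% of all genes), at hour 4, 6 rose (4.86%) and 0 fell (10.6%), and at hour 8, 1 fell (1.93%). At hour 4 limma had 10 members higher and 0 lower at an unadjusted p below 0.05. The median member change was 0.08, 0.60 and 0.06 at the 3 hours. The 6 calls at hour 4 became 1 without animal Y31306, 0 without Y31307 and 1 without Y31308, and 1 with the animal not used as a block. The single call at hour 8 was lost without Y31306, Y31307 or Y31308, and 4 were made without Y31305. With only the arrays of high poly-A signal, which are all 4 of hour 4, 2 rose.

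In the vehicle arm 1 member was called, TRIM22 at hour 4, where 0.213% of all genes rose. At hours 2 and 8, 0 members were called, against 0.0752% and 0.144% of all genes, with 2 higher and 1 lower at hour 2 and 1 higher and 5 lower at hour 8 at an unadjusted p below 0.05 in limma. The median change was 0.11, 0.16 and -0.42 at hours 2, 4 and 8, and 6 of 40 members were above 0 at hour 8. The single call at hour 4 was absent without animal Y31302 and with the animal not used as a block.

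**Figure D1:**
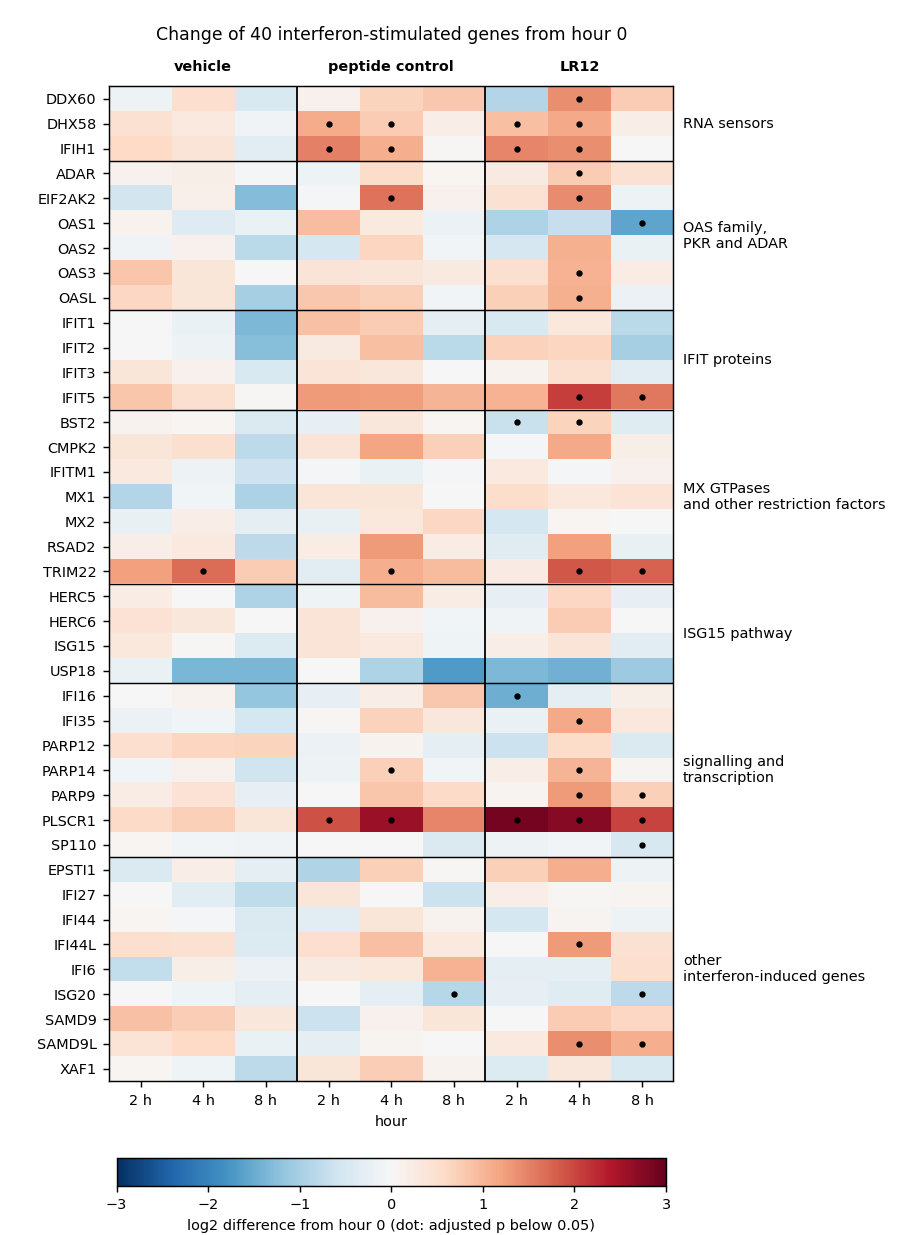
Log2 difference from hour 0 (colour, from -3 to 3) of the 40 members tested (rows, grouped by role) in each arm at hours 2, 4 and 8 (columns), with a dot where the adjusted p is below 0.05. The hour 4 column of the LR12 arm holds 16 dots, that of the peptide control arm 6 and that of the vehicle arm 1.

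Animal by animal, the median change of the 40 members at hour 4 was 0.99, 0.51, 0.83, 0.86, 0.98 and 0.27 in the 6 LR12 animals in order of their number. It was 0.13, 1.07, 0.61 and 0.43 with the peptide control, and the vehicle animals had 0.26, 0.03, 0.24 and -0.13. The lowest LR12 value, that of Y31314, lay close to the highest vehicle value, and the peptide control values spanned both arms. Relative to the median of all genes in the same animal, the LR12 animals lay between 0.50 and 1.31, the peptide control animals between 0.11 and 1.46 and the vehicle animals between -0.10 and 0.49. At hour 8 the vehicle values were all below 0 on that scale, from -0.71 to -0.14, the LR12 values ran from -0.08 to 0.69 and those of the peptide control from -0.06 to 0.67.

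**Figure D2:**
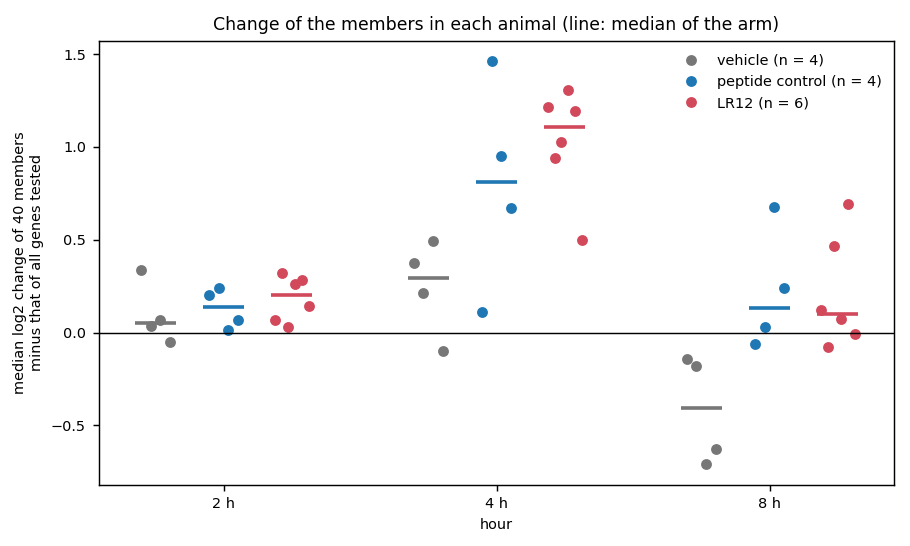
Median log2 change of the 40 members minus that of all genes tested (vertical axis) for each animal at hours 2, 4 and 8 (horizontal axis), coloured by arm, with a line at the median of the arm. At hour 4 the 6 LR12 animals lie between 0.50 and 1.31, and 1 peptide control animal lies at 0.11.

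All 3 cytosolic RNA sensors were called above hour 0 at hour 4 in the LR12 arm, while at hour 2 IFIH1 and DHX58 were called and DDX60 was not. IFIH1, which encodes the double-stranded RNA sensor MDA5, ran from 10.33 to 11.35 (median 10.84) at hour 0 in the LR12 arm, from 11.70 to 12.87 (median 12.39) at hour 2, from 11.95 to 12.51 (median 12.28) at hour 4 and from 10.23 to 11.52 (median 10.90) at hour 8. The values of hours 2 and 4 lay above every value of hour 0, and those of hour 8 overlapped with hour 0. Its change was 1.46 ± 0.25 (SE, n = 6; adjusted p = 4.57e-06) at hour 2, 1.41 ± 0.25 (adjusted p = 7.43e-06) at hour 4 and 0.02 ± 0.25 (adjusted p = 0.963) at hour 8. In the peptide control animals IFIH1 read 11.22, 10.60, 10.11 and 9.69 at hour 0, 11.65, 12.62, 11.80 and 11.64 at hour 2 and 11.16, 12.35, 11.60 and 10.92 at hour 4. All 4 were higher at hour 2, and the change of 1.52 ± 0.31 (SE, n = 4; adjusted p = 0.000817) stood beside 1.46 ± 0.25 with LR12. In the vehicle arm IFIH1 read 10.93, 9.94, 10.72 and 10.46 at hour 0 and 11.09, 10.03, 12.40 and 10.92 at hour 2, where only Y31303 was more than 1 unit above its own start. A second probe set of IFIH1 changed by 0.92 and 0.14 on average in the LR12 arm at hours 2 and 4 and was not called.

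DHX58 encodes LGP2, a sensor of the same helicase family that tunes MDA5. In the LR12 arm it ran from 6.16 to 6.63 (median 6.30) at hour 0, from 6.62 to 7.80 (median 7.29) at hour 2 and from 6.98 to 7.83 (median 7.53) at hour 4, rising by 0.91 ± 0.21 (SE, n = 6; adjusted p = 0.000339) and 1.14 ± 0.21 (adjusted p = 1.05e-05). Every LR12 animal was higher at hour 4 and 5 of 6 at hour 2. The peptide control animals read 6.37, 6.48, 5.60 and 5.90 at hour 0 and 6.95, 7.97, 7.0 and 6.91 at hour 2, a rise of 1.12 ± 0.25 (SE, n = 4; adjusted p = 0.0029) without overlap. The vehicle animals read 6.02, 6.21, 6.30 and 6.40 at hour 0 and 6.48, 5.90, 7.43 and 6.96 at hour 2, and 1 of 4 went down. DDX60, a helicase that aids these sensors, was called at hour 4 alone, at 1.39 ± 0.57 (SE, n = 6; adjusted p = 0.0449), after -0.88 ± 0.57 at hour 2.

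Of the enzymes that degrade, edit or respond to viral RNA, 4 of 6 rose at hour 4 in the LR12 arm. EIF2AK2, which encodes the kinase PKR that halts translation, went from 9.0 to 11.14 (median 10.01) at hour 0 and from 9.72 to 12.36 (median 11.55) at hour 4, with overlap, and was higher in all 6 animals. The change was 1.42 ± 0.45 (SE, n = 6; adjusted p = 0.00791), and with the animal not used as a block its adjusted p was 0.0508. In the peptide control arm EIF2AK2 read 10.37, 10.64, 8.03 and 8.66 at hour 0 and 10.08, 12.23, 11.27 and 10.59 at hour 4, higher in 3 of 4, a change of 1.62 ± 0.55 (SE, n = 4; adjusted p = 0.0363), a call lost without Y31306, Y31307 or Y31308 and without the block. The animal that did not rise was Y31305, whose starting level was the second highest of the 4. ADAR, the enzyme that edits adenosines in double-stranded RNA, went from 10.52 to 12.11 (median 11.35) at hour 0 and from 11.82 to 12.34 (median 12.09) at hour 4 in the LR12 arm, 0.76 ± 0.21 (SE, n = 6; adjusted p = 0.00266). OASL, an OAS family member that aids RNA sensing, went from 9.54 to 11.28 (median 10.60) and from 10.18 to 12.03 (median 11.66), 1.07 ± 0.37 (SE, n = 6; adjusted p = 0.0151), with the animal Y31314 far below the other 5 at hour 4. That call was lost without the block (adjusted p = 0.0703), without Y31309 (adjusted p = 0.0635) and with the second probe set, at 0.57 (adjusted p = 0.332). OAS3, which makes the oligoadenylates that activate RNase L, rose by 1.03 ± 0.31 (SE, n = 6; adjusted p = 0.00554). OAS2, of the same activity, read 1.07 ± 0.46 (adjusted p = 0.0541), higher in 6 of 6 animals but not called. OAS1 read -0.68 ± 0.62 (adjusted p = 0.404) at hour 4 and fell at hour 8, with a change of -1.59 ± 0.62 (adjusted p = 0.038); it was above the array median on only 37 of the 56 arrays, and its second probe set read 0.64 at hour 4.

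Among the IFIT proteins, which bind foreign RNA ends, only IFIT5 was called against hour 0. In the LR12 arm it ran from 5.33 to 7.49 (median 6.19) at hour 0, from 5.94 to 8.80 (median 7.51) at hour 2, from 7.03 to 9.31 (median 8.72) at hour 4 and from 6.27 to 8.97 (median 8.09) at hour 8. The values of hours 0 and 4 overlapped, but each of the 6 animals was above its own start at all 3 later hours. The change was 2.08 ± 0.44 at hour 4 (SE, n = 6; adjusted p = 9.61e-05), a fold of 4.22, and 1.59 ± 0.44 at hour 8 (adjusted p = 0.00313), where the second probe set read 0.95 (adjusted p = 0.286). In the peptide control arm IFIT5 read 6.87, 5.71, 4.63 and 4.68 at hour 0 and 7.43, 7.83, 5.54 and 6.07 at hour 4, higher in all 4 but not called, at 1.24 ± 0.54 (SE, n = 4; adjusted p = 0.103). IFIT1, IFIT2 and IFIT3, often taken as readouts of the interferon response, changed by 0.33 ± 0.61, 0.65 ± 0.58 and 0.49 ± 0.27 at hour 4 in the LR12 arm, with adjusted p of 0.713, 0.394 and 0.151. IFIT3 fell from hour 4 to hour 8, with a step of -0.81 ± 0.27 (SE; adjusted p = 0.0465).

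Of the 7 restriction factors tested, TRIM22 and BST2 rose at hour 4 in the LR12 arm. TRIM22, a ubiquitin ligase that restrains viral transcription, read from 10.21 to 11.06 (median 10.32) at hour 0, from 10.11 to 11.75 (median 10.65) at hour 2, from 11.79 to 12.57 (median 12.41) at hour 4 and from 11.88 to 12.62 (median 12.12) at hour 8. The last 2 hours lay wholly above hour 0, with changes of 1.87 ± 0.26 (SE, n = 6; adjusted p = 6.55e-08) and 1.76 ± 0.26 (adjusted p = 6.27e-07). The peptide control animals read 11.58, 11.13, 9.91 and 11.27 at hour 0, 11.84, 10.80, 9.22 and 10.67 at hour 2 and 11.66, 12.37, 12.08 and 12.18 at hour 4, 1.10 ± 0.32 (SE, n = 4; adjusted p = 0.0157), a call lost without Y31306, Y31307 or Y31308 and without the block. The vehicle animals read 10.41, 9.56, 10.65 and 10.88 at hour 0, 11.87, 10.99, 11.53 and 12.03 at hour 2, 11.93, 11.72, 12.43 and 12.17 at hour 4 and 11.22, 9.77, 11.89 and 11.65 at hour 8. TRIM22 was thus higher at hour 4 in every animal of every arm, and the vehicle change of 1.69 ± 0.32 (SE, n = 4; adjusted p = 0.00844) was already 1.23 ± 0.32 at hour 2, where the LR12 change was 0.25 ± 0.26. At hour 2 LR12 lay below vehicle, with a difference of -0.93 (95% interval -1.59 to -0.26, adjusted p = 0.0425). That call was lost with the arrays centred, without the block, with plain moderation, in the fit on second probe sets and within the arrays of low poly-A signal. It was also lost without any 1 of Y31301, Y31304, Y31309, Y31310, Y31311, Y31312 or Y31314.

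BST2 encodes tetherin, which holds budding virus at the cell surface. It ran from 8.83 to 9.35 (median 9.25) at hour 0, from 7.80 to 9.46 (median 8.48) at hour 2 and from 9.29 to 10.34 (median 9.77) at hour 4 in the LR12 arm. It fell in 5 of 6 animals at hour 2, -0.67 ± 0.26 (SE, n = 6; adjusted p = 0.035), then rose in all 6, to 0.66 ± 0.26 (adjusted p = 0.0339) relative to hour 0. With the animal not used as a block neither was called, and with the arrays centred, or without Y31309, the fall was not called. Without Y31311, Y31312 or Y31313 neither was called. With the peptide control BST2 read 8.48, 9.26, 8.71 and 8.01 at hour 0 and 8.51, 10.12, 8.29 and 8.90 at hour 4. RSAD2, which encodes viperin, and its neighbour CMPK2 were higher in 6 of 6 LR12 animals at hour 4, at 1.23 ± 0.59 (SE; adjusted p = 0.0888) and 1.14 ± 0.49 (SE; adjusted p = 0.0544), and were not called. The GTPases MX1 and MX2 read 0.31 ± 0.35 and 0.07 ± 0.35, and IFITM1 -0.05 ± 0.54, with adjusted p of 0.51, 0.901 and 0.954.

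The ISG15 pathway attaches the small protein ISG15 to other proteins and removes it again. Of its 4 genes 0 were called by limma in any arm at any hour relative to hour 0, and of these 36 tests 0 were higher and 3 lower at an unadjusted p below 0.05. With LR12 at hour 4, ISG15 itself read 0.38 ± 0.27 (SE; adjusted p = 0.279), higher in 6 of 6 animals, the ligase HERC5 0.62 ± 0.55 (adjusted p = 0.396) and its relative HERC6 0.76 ± 0.42 (adjusted p = 0.141). USP18 removes ISG15 and damps the interferon receptor. Its mean lay below hour 0 in all 3 arms at hour 4. The change was -1.45 ± 0.64 with LR12, -0.93 ± 0.79 with the peptide control and -1.37 ± 0.79 with vehicle. In limma the adjusted p was 0.0645, 0.445 and 0.425. USP18 was low in signal, above the array median on only 37 of the 56 arrays. With LR12 it ran from 4.47 to 5.86 (median 5.21) at hour 0 and from -0.99 to 6.08 (median 4.58) at hour 4. At hour 4 USP18 was higher than at hour 0 in 2 of 6 LR12 animals.

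The members that act in signalling and transcription held the largest rise of the 40 in the LR12 arm, that of PLSCR1, at each of hours 2, 4 and 8. PLSCR1 encodes a phospholipid scramblase that hinders viral entry. In the LR12 arm it ran from 8.23 to 10.29 (median 9.42) at hour 0, from 11.84 to 12.59 (median 12.16) at hour 2, from 11.85 to 12.46 (median 11.93) at hour 4 and from 10.54 to 12.05 (median 11.36) at hour 8. Every later value lay above every value of hour 0, with changes of 2.87 ± 0.45 (SE, n = 6; adjusted p = 9.93e-07), 2.74 ± 0.45 (adjusted p = 1.99e-06) and 2.03 ± 0.45 (adjusted p = 0.000327), or folds of 7.33, 6.66 and 4.1. The peptide control animals read 10.69, 9.66, 8.25 and 9.23 at hour 0, 10.04, 11.79, 11.95 and 11.69 at hour 2 and 11.05, 12.29, 12.73 and 12.11 at hour 4. Y31305 started highest and was lower at hour 2, while the other 3 rose by more than 2 units. The arm mean changed by 1.91 at hour 2, a call lost without the block, without Y31306, Y31307 or Y31308, and with the second probe set, at 0.07. The arm changed by 2.59 ± 0.55 (SE, n = 4; adjusted p = 0.00192) at hour 4, a call lost without Y31307. The vehicle animals read 8.75, 7.93, 10.69 and 10.56 at hour 0, 9.84, 8.63, 12.21 and 9.55 at hour 2 and 9.67, 8.33, 12.78 and 10.01 at hour 4, and Y31303 reached the range of the LR12 animals. A second probe set of PLSCR1, whose mean log2 level of 4.32 lay near the array medians, gave other values. With LR12 it read 1.39, -0.21 and 0.19 at hours 2, 4 and 8, and was not called.

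PARP9, PARP14 and PARP12 belong to the ADP-ribosyl transferase family. With LR12, PARP9 ran from 9.11 to 10.84 (median 9.41) at hour 0 and from 10.28 to 12.04 (median 10.75) at hour 4, with Y31312 highest at both, and rose by 1.28 ± 0.25 (SE, n = 6; adjusted p = 3.28e-05). At hour 8 PARP9 was still 0.71 ± 0.25 (adjusted p = 0.0205) above its start, a call lost without the block (adjusted p = 0.0873), without Y31310, Y31311 or Y31313 and with only the arrays of low poly-A signal (adjusted p = 0.193). PARP14 ran from 9.47 to 11.03 (median 10.39) and from 10.82 to 11.66 (median 11.53), rising by 1.03 ± 0.21 (SE, n = 6; adjusted p = 7.97e-05), where its second probe set read 0.49 (adjusted p = 0.292). In the peptide control arm PARP14 read 11.10, 10.47, 9.67 and 9.72 at hour 0 and 11.05, 11.41, 10.87 and 10.54 at hour 4, 0.73 ± 0.26 (SE, n = 4; adjusted p = 0.0493), with Y31305 again the one that did not rise, and the call was lost without Y31306, Y31307 or Y31308 and without the block. PARP12 was not called against hour 0, at 0.56 ± 0.29, but was higher at hour 4 than at hour 2 by 1.21 ± 0.29 (SE; adjusted p = 0.00185). IFI35, a partner of the protein NMI, ran from 5.78 to 6.92 (median 6.43) at hour 0, from 5.86 to 6.52 (median 6.08) at hour 2 and from 6.99 to 7.81 (median 7.57) at hour 4. The values of hour 4 lay above all values of the earlier hours, 1.13 ± 0.22 (SE, n = 6; adjusted p = 4.36e-05).

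IFI16, a sensor of DNA, moved the other way. With LR12 it ran from 10.84 to 11.41 (median 11.35) at hour 0, from 8.66 to 10.89 (median 9.72) at hour 2, from 9.92 to 11.98 (median 10.78) at hour 4 and from 10.68 to 12.57 (median 11.42) at hour 8. It fell in 6 of 6 animals at hour 2, with a change of -1.48 ± 0.32 (SE, n = 6; adjusted p = 0.000185), and read -0.26 ± 0.32 (adjusted p = 0.551) at hour 4. The peptide control animals read 10.50, 11.06, 11.03 and 9.98 at hour 0 and 11.65, 10.63, 10.03 and 9.24 at hour 2, and the vehicle animals 11.73, 11.08, 11.33 and 11.59 and 11.87, 11.07, 11.27 and 11.56. Each vehicle animal stayed close to its start, and Y31305 of the peptide control arm rose while the other 3 fell. A second probe set of IFI16 fell at hour 2, by 1.31 on the log2 scale, but stayed down at hour 8, at -0.96 (adjusted p = 0.00448 with that probe set), where the first set read 0.18 ± 0.32. SP110, a nuclear body protein, fell at hour 8 by 0.49 on the log2 scale (adjusted p = 0.00238), lower in 6 of 6 animals. Its other probe sets above the filter disagreed in sign, with mean changes of -0.52, -0.26, 0.34 and 0.23 in order of mean level.

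Of the 9 other interferon-induced genes, SAMD9L and IFI44L rose at hour 4 in the LR12 arm. SAMD9L, which restrains translation of viral and host transcripts, ran from 9.02 to 10.97 (median 10.31) at hour 0, from 11.35 to 11.72 (median 11.54) at hour 4 and from 10.62 to 11.59 (median 11.29) at hour 8. All values of hour 4 lay above all of hour 0, 1.38 ± 0.22 (SE, n = 6; adjusted p = 1.15e-06), and the change was 1.08 ± 0.22 (adjusted p = 0.000119) at hour 8. The peptide control animals read 11.30, 10.75, 10.90 and 10.75 at hour 0 and 10.88, 11.21, 11.27 and 10.63 at hour 4, and the vehicle animals 10.78, 9.94, 11.77 and 11.71 and 11.74, 11.92, 11.51 and 11.39. At hour 0 the LR12 mean differed from the peptide control by -0.77 (95% interval -1.34 to -0.20, adjusted p = 0.937), which was not called, and at hour 4 the LR12 and vehicle values overlapped. IFI44L ran from 4.92 to 6.97 (median 5.81) and from 5.93 to 8.01 (median 7.48) in the LR12 arm, 1.28 ± 0.44 (SE, n = 6; adjusted p = 0.0151), not called with the animal unblocked, without Y31313 or with only the arrays of low poly-A signal. ISG20, an exonuclease, fell at hour 8 in the LR12 and peptide control arms. The LR12 values ran from 11.56 to 12.66 (median 11.67) at hour 0 and from 10.60 to 11.44 (median 11.01) at hour 8, lower in 6 of 6 animals, -0.80 ± 0.19 (SE, n = 6; adjusted p = 0.000588). Those of the peptide control were 11.87, 12.40, 11.34 and 11.86 at hour 0 and 11.80, 11.02, 10.33 and 10.89 at hour 8, lower in 4 of 4, -0.86 ± 0.23 (SE, n = 4; adjusted p = 0.0199). With the arrays centred neither fall was called, and that of the peptide control was also lost without Y31306, Y31307 or Y31308 and without the block. IFI6, IFI27, IFI44, XAF1, EPSTI1 and SAMD9 were not called against hour 0 in any arm at any hour, and in the LR12 arm at hour 4 they ran from -0.27 ± 0.69 for IFI6 to 1.09 ± 0.56 (SE) for EPSTI1.

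**Figure D3:**
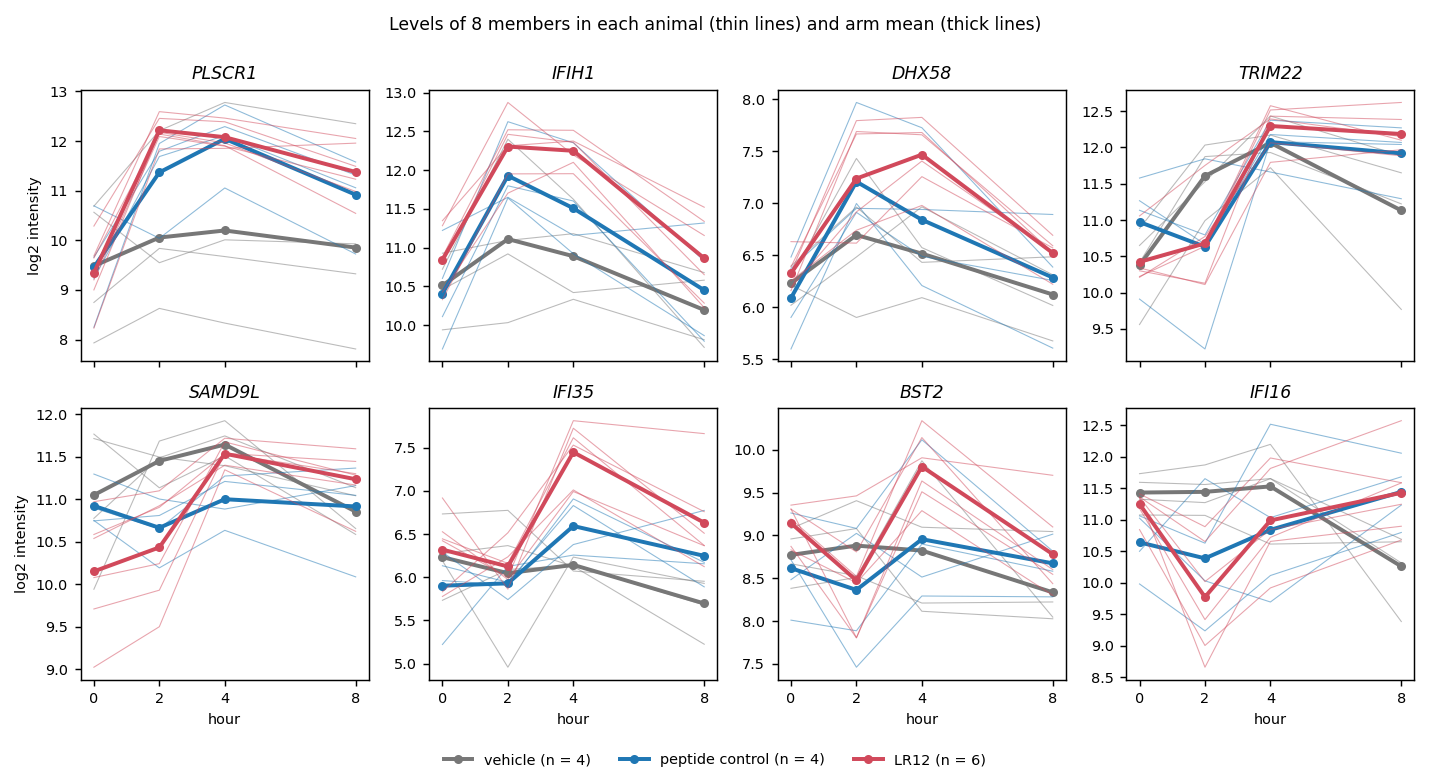
Log2 intensity (vertical axes) of 8 members at hours 0, 2, 4 and 8 (horizontal axes), with a thin line for each animal and a thick line with points for the mean of each arm. The means of PLSCR1, IFIH1 and DHX58 are already high at hour 2 in the LR12 and peptide control arms. Those of TRIM22, SAMD9L and IFI35 in the LR12 arm step up between hours 2 and 4, and those of BST2 and IFI16 dip at hour 2.

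The calls of the LR12 arm thus came at different hours. PLSCR1, IFIH1 and DHX58 were called above hour 0 at hour 2, where 12.1% of all genes rose, and not again between hours 2 and 4. In that step 11 other members rose, against 7.99% of all genes. Those 11 were TRIM22, IFI35, BST2, SAMD9L, PARP9, PARP12, PARP14, DDX60, IFI16, OAS2 and IFI44L. For IFI35, BST2, PARP12, DDX60, IFI16 and OAS2 the step began below hour 0. Their changes at hour 2 ran from -0.20 for IFI35 to -1.48 for IFI16. PARP12, IFI16 and OAS2 were not called above hour 0 at hour 4, where IFI16 read -0.26. DDX60 was low in signal, with values down to -0.0033 at hour 2. The step was 1.62 ± 0.26 (SE; adjusted p = 6.68e-06) for TRIM22, 1.32 ± 0.22 (SE; adjusted p = 1.55e-05) for IFI35, 1.33 ± 0.26 (SE; adjusted p = 0.000131) for BST2 and 2.27 ± 0.57 (SE; adjusted p = 0.00305) for DDX60. Between hours 4 and 8, 10 members fell (4.24% of all genes): EIF2AK2, IFIH1, OASL, BST2, PARP12, DHX58, PARP14, IFI35, IFIT3 and SP110. The step was -1.39 ± 0.25 (SE; adjusted p = 9.93e-05) for IFIH1 and -1.58 ± 0.45 (SE; adjusted p = 0.0143) for EIF2AK2, while TRIM22, SAMD9L, PLSCR1, IFIT5 and PARP9 were the 5 members still called above hour 0 at hour 8. The count of 10 was 4 without animal Y31312, 6 without Y31309, 5 with the animal not used as a block, and 4 and 0 with only the arrays of low and of high poly-A signal.

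The question the design puts to LR12 is how it differs from its scrambled control. At hours 0, 2, 4 and 8, 0 members were called between these arms, against 0%, 4.56%, 1.87% and 0.0627% of all genes. At an unadjusted p below 0.05, limma had 1 higher and 1 lower at hour 0, 1 higher at hour 2, 8 higher at hour 4 and 3 higher at hour 8. The median difference of the 40 members was 0.40, 0.21, 0.48 and 0.29, and at hour 0 it was above 0 for 33 members already. At hour 2 ADAR was called without animal Y31309, by 0.87 (adjusted p = 0.0322), and also with the arrays centred. The difference in change from hour 0 was called for 0 members at each hour, against 1.18%, 0.00627% and 0% of all genes, with 0, 1 and 1 higher and 1, 0 and 0 lower at an unadjusted p below 0.05 in limma. Those results do not show that the arms act alike, since the intervals were wide.

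At hour 4 the 8 members with an unadjusted p below 0.05 were IFIT5, OASL, OAS3, IFI35, BST2, IFIH1, DHX58 and ADAR. IFIT5 of LR12 lay 1.66 (95% interval 0.55 to 2.77, adjusted p = 0.0927) above the peptide control and OASL 1.35 (95% interval 0.41 to 2.29, adjusted p = 0.108). IFI35 read 6.91, 6.83, 6.26 and 6.38 in the peptide control animals and from 6.99 to 7.81 (median 7.57) with LR12, without overlap, a difference of 0.86 (95% interval 0.28 to 1.43, adjusted p = 0.0927). For PLSCR1 the difference was 0.03 (95% interval -1.11 to 1.18, adjusted p = 0.99) and for TRIM22 0.22 (95% interval -0.44 to 0.89, adjusted p = 0.814). These 2 intervals allow a difference of more than 1 unit for PLSCR1 in either direction and of less than that for TRIM22. SAMD9L values did not overlap between the arms at hour 4, at 0.54 (95% interval -0.03 to 1.10, adjusted p = 0.337), and with its second probe set the difference was 1.43 (adjusted p = 0.0216). Without animal Y31306, 1 of the members was called at hour 4.

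Against vehicle, LR12 had 0 members called at hour 0 (0.0313% of all genes; 1 higher and 1 lower at an unadjusted p below 0.05 in limma). At hour 2, 2 were higher (5.14% of all genes) and 3 lower (12.8%). PLSCR1 lay 2.16 (95% interval 1.02 to 3.31, adjusted p = 0.00568) and IFIH1 1.19 (95% interval 0.55 to 1.83, adjusted p = 0.006) above vehicle, and the second probe set of PLSCR1 gave 0.58 (adjusted p = 0.69). IFI16 differed by -1.67 (95% interval -2.48 to -0.85, adjusted p = 0.00278) and SAMD9L by -1.02 (95% interval -1.58 to -0.45, adjusted p = 0.00835), both without overlap, and TRIM22 was the third that was lower. For SAMD9L the difference was -0.90 at hour 0 already (adjusted p = 0.688, not called), and the hour 2 call did not hold with the arrays centred, at -0.71 (adjusted p = 0.12), or with its second probe set, at 0.0021.

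At hour 4, 8 members were higher with LR12 than with vehicle, against 4.96% of all genes. They were PLSCR1, IFIT5, IFIH1, IFI35, BST2, DHX58, ADAR and PARP14. IFI35 read 6.13, 6.23, 6.14 and 6.07 in the vehicle animals and lay higher in every LR12 animal, by 1.31 (95% interval 0.73 to 1.88, adjusted p = 0.00166). IFIH1, at 11.18, 10.33, 11.62 and 10.42 with vehicle, was higher by 1.36 (95% interval 0.72 to 2.00, adjusted p = 0.00292), DHX58 by 0.95 (95% interval 0.42 to 1.48, adjusted p = 0.0106) and ADAR by 0.84 (95% interval 0.30 to 1.38, adjusted p = 0.0272), each without overlap. IFIT5 was higher by 1.65 (95% interval 0.54 to 2.76, adjusted p = 0.0367), BST2 by 0.98 (95% interval 0.32 to 1.64, adjusted p = 0.036) and PARP14 by 0.80 (95% interval 0.26 to 1.34, adjusted p = 0.0375). PLSCR1 was higher by 1.88 (95% interval 0.74 to 3.03, adjusted p = 0.0201), though Y31303 overlapped, and its second probe set read -0.32. The count was 3, 2 and 4 without Y31301, Y31302 and Y31304 of the vehicle arm, 5 and 4 without Y31312 and Y31313 of the LR12 arm, 12 at most, and 4 with the animal not used as a block. Within the arrays of low poly-A signal it was 5, and within those of high signal 0, with IFI35 at 1.15 there.

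At hour 8, 1 member was higher, against 1.55% of all genes: IFI35, by 0.94 (95% interval 0.36 to 1.51, adjusted p = 0.0451). That call was absent without any 1 of Y31301, Y31302, Y31304 or Y31310 to Y31314, while 6 members were called without Y31303 and 4 without Y31309, and 6 with the arrays centred. In the change from hour 0, LR12 and vehicle differed for 2 members at hour 2 (10.7% of all genes), PLSCR1 by 2.30 (95% interval 0.87 to 3.73, adjusted p = 0.0295) and IFI16 by -1.49 (95% interval -2.50 to -0.47, adjusted p = 0.0481). At hour 4 they differed for IFI35, by 1.22 (95% interval 0.50 to 1.93, adjusted p = 0.0297) (2.3% of all genes higher), and at hour 8 for SAMD9L, by 1.28 (95% interval 0.57 to 1.99, adjusted p = 0.0457) (0.677% higher). For SAMD9L the LR12 mean was 10.15 at hour 0 and 11.24 at hour 8 and the vehicle mean 11.05 and 10.85, so the arms differed by -0.90 at the start and by 0.38 at hour 8. With its second probe set the level at hour 8 differed between the arms by 1.82 (adjusted p = 0.00136), which is not the difference in change. All 4 calls in the change from hour 0 were lost without Y31301, without Y31304, without Y31312 and without the animal as a block. They were also lost in the fit on second probe sets. Both calls of hour 2 were also lost without Y31309 or Y31313, and 1 member was called then without Y31302, Y31311 or Y31314. The call of hour 4 was also lost without Y31310, while 3 members were called without Y31303 and 2 without Y31302, and that of hour 8 was lost without Y31309, Y31310, Y31311 or Y31313.

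Between the peptide control and vehicle 0 members were called at hours 0, 2, 4 and 8, against 0%, 0%, 0.0251% and 0.0251% of all genes. At an unadjusted p below 0.05 limma had 0 at hour 0, 2 higher and 4 lower at hour 2, 1 of each at hour 4, and 3 higher and 1 lower at hour 8. The median difference of the members was -0.18, -0.24, 0.20 and 0.28. Without Y31303, 2, 1 and 1 members were called at hours 2, 4 and 8, and without Y31305, 1 at hour 2 and 1 at hour 4. At hour 4 PLSCR1 of the peptide control lay 1.85 (95% interval 0.59 to 3.10, adjusted p = 0.21) above vehicle and IFIH1 0.62 (95% interval -0.08 to 1.32, adjusted p = 0.465). LR12 with 6 animals and the peptide control with 4 were each set against the same 4 vehicle animals, so these comparisons share control samples.

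**Figure D4:**
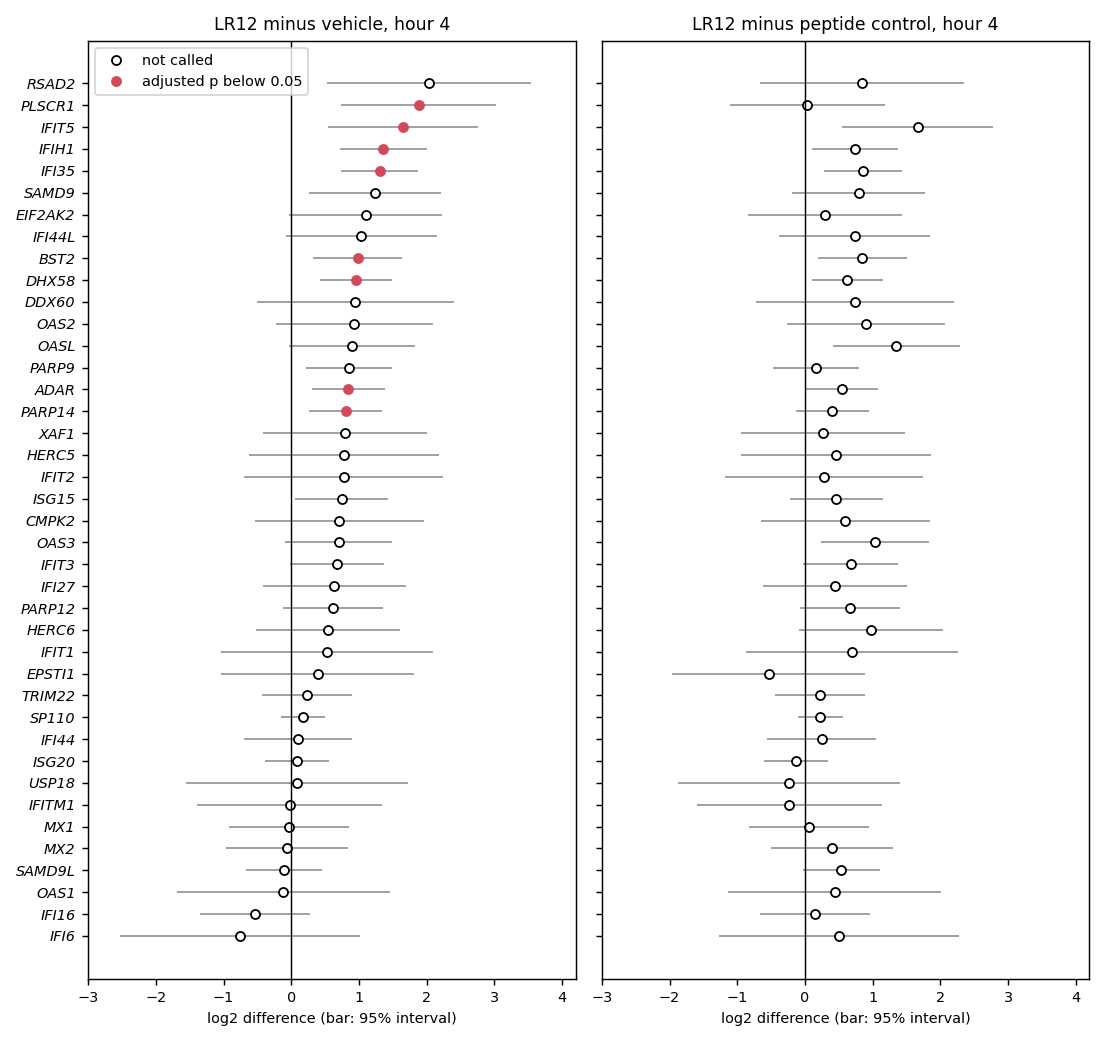
Log2 difference at hour 4 (horizontal axes) with its 95% interval for each of the 40 members (rows, ordered by the left panel), for LR12 minus vehicle on the left and LR12 minus peptide control on the right. Filled points mark an adjusted p below 0.05, 8 on the left and 0 on the right; for 36 of 40 members the points on the right lie above 0.

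The rest of the pathway was followed with lists of its other genes. Of the 9 interferon genes listed, 6, among them IFNB1 and IFNG, lay below the filter. Of the 3 tested 0 rose in the LR12 arm at hour 4 (limma, also 0 at an unadjusted p below 0.05), and IFNL1 fell, -1.58 ± 0.60 (SE, adjusted p = 0.0276). All 3 were low in signal, with log2 levels from 0.42 to 5.36 for IFNL1, 0.92 to 5.03 for IFNA21 and 0.29 to 4.93 for IFNW1. The counts of these lists at hour 4 in the LR12 arm stand beside the 12.8% of all genes that rose and the 30% that fell. Of the 7 receptor and kinase genes, 4 rose and 2 fell, the latter near the share of all genes. The interferon receptor subunit IFNAR1 rose by 1.78 ± 0.23 (SE, adjusted p = 1.11e-08), the gamma receptor subunit IFNGR2 by 1.73 ± 0.23 (SE, adjusted p = 2.31e-08) and the kinase JAK2 by 2.12 ± 0.29 (SE, adjusted p = 3.82e-08), while the kinases JAK1 and TYK2 fell, at -0.76 ± 0.17 (SE, adjusted p = 0.000233) and -0.74 ± 0.21 (SE, adjusted p = 0.00246). IFNAR1 was also higher with LR12 than with the peptide control at hour 4, by 1.02 (adjusted p = 0.0494).

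Of the 7 transcription factors tested, 4 rose and 3 fell at hour 4 in the LR12 arm. IRF7, which amplifies interferon production, rose by 1.55 ± 0.26 (SE, adjusted p = 2.83e-06), and IRF9, which partners STAT2, by 0.40 ± 0.14 (SE, adjusted p = 0.0175). IRF1 led in time, at 1.43 ± 0.17 (SE, adjusted p = 2.81e-09) at hour 2 and 0.66 ± 0.17 (SE, adjusted p = 0.00147) at hour 4, and was higher with LR12 than with the peptide control at hour 2 by 0.73 (adjusted p = 0.0428). IRF3, IRF5 and IRF8 fell, IRF3 with a change of -1.11 ± 0.21 (SE, adjusted p = 2.08e-05). Of the 4 feedback genes 2 rose at hour 4: SOCS1, an inhibitor of the JAK kinases, by 2.28 ± 0.32 (SE, adjusted p = 8.77e-08) and SOCS3 by 0.96 ± 0.23 (SE, adjusted p = 0.000486). SOCS1 rose in the peptide control arm too, by 1.57 ± 0.40 (SE, adjusted p = 0.00616).

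Of the 11 sensors and adaptors tested, 2 rose and 3 fell at hour 4, both near the shares of all genes. The endotoxin receptor TLR4 rose by 0.91 ± 0.23 (SE, adjusted p = 0.00108) and the kinase TBK1 by 0.88 ± 0.15 (SE, adjusted p = 2.06e-06), while the adaptor MAVS, the DNA sensor TLR9 and ZBP1 fell. Of the 9 genes that lean to interferon gamma, 7 rose at hour 4 in the LR12 arm and 1 in the peptide control arm. The chemokine CXCL10 rose most of these, by 4.10 ± 0.51 (SE, adjusted p = 7.93e-09) with LR12 and 1.77 ± 0.63 (SE, adjusted p = 0.0462) with the peptide control, followed by IDO1, which degrades tryptophan, at 1.60 ± 0.34 (SE, adjusted p = 0.000132), and the GTPase GBP2 at 1.24 ± 0.30 (SE, adjusted p = 0.000516). At hour 8 CXCL10 had fallen below its start in the LR12 arm, -1.34 ± 0.51 (SE, adjusted p = 0.0353).

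Markers of blood cells moved over the same hours. At hour 4, 7 of 8 neutrophil markers rose in the LR12 arm, and their summed linear level ran from 6215 to 14831 at hour 0 and from 20353 to 24945 at hour 4. All 7 T cell markers tested fell, with sums of 6074 to 9489 and 808 to 2899, as did 4 of 5 of B cells, with 1662 to 4064 and 476 to 2302, and 5 of 6 of NK cells, where 1 rose, with 1502 to 3857 and 1911 to 4303. Such a sum weighs the strongest probe sets most. For NK cells the median sum rose from 1993 at hour 0 to 3247 at hour 4. The mean log2 level of the 6 NK cell markers fell from 7.76 to 6.35. Of 8 monocyte markers 5 rose and 3 fell, with 15933 to 25070 and 17268 to 28347, and of 5 markers of plasmacytoid dendritic cells, known as strong makers of type I interferon, 2 rose and 3 fell (1 of the 5, IRF7, is also counted above), with 2253 to 5266 and 965 to 3333. Of 5 platelet markers 4 fell, with 7086 to 13919 and 4561 to 8105, and of 5 erythroid markers 1 fell, with 13749 to 31183 and 16877 to 26512. In the peptide control arm 2 of 8 neutrophil markers rose and all 7 T cell markers fell at hour 4, with T cell sums of 3995 to 8118 and 1474 to 3474; in the vehicle arm 0 of either were called by limma, with 6 neutrophil markers higher and 4 T cell markers lower at an unadjusted p below 0.05 and T cell sums of 3895 to 10435 and 2120 to 4450. No marker tested was listed at 0; CD3E and CLEC4C lay below the filter, and GP1BB was not analysed here. The mean log2 level of the 8 monocyte markers was lowest at hour 2. It read 10.42, 9.29, 10.12 and 10.73 with LR12 at hours 0, 2, 4 and 8. With the peptide control it read 10.74, 10.01, 10.32 and 10.86, and with vehicle 10.61, 10.37, 10.63 and 10.82. The median summed level of these markers with LR12 rose instead, from 17289 at hour 0 to 26083.5 at hour 2. The part of the cell markers in the changes of the members, including the falls of IFI16 and BST2 at hour 2, was not tested.

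Other probe sets of the members gave a check on the ones chosen. Of the 40 members 19 had a second probe set above the filter, and in the LR12 arm its mean change had the sign of the first for 15 of 19 at hour 2, 17 at hour 4 and 14 at hour 8. The median change of these 19 at hour 4 was 1.03 with the first probe set and 0.39 with the second, the one next in mean level. With the second set SAMD9L read 1.70 and IFIT5 1.87 at hour 4, and PLSCR1 and OAS1 were the 2 that differed in sign at that hour.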

How the data were processed

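The deposited table held array intensities of 54675 probe sets on 56 arrays, on a linear scale. The submitters' processing notes name MAS5 without a version, which reduces the probes of a set to 1 signal and scales each array; the mean after trimming 2% at each end was 150 on every array. Per the labels, RNA came from PAXgene blood and was made into biotinylated cDNA with a NuGEN kit. Arrays have no read depth, and precision here is limited by how many there are.

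The deposited values were taken to log2 without an offset. Each gene was read by its probe set of 1 symbol with the highest mean, and 15953 of 19775 genes were kept, those above the array median on at least 4 arrays. Of the 42 members, 41 were found in the macaque gene table by symbol (not IFI16). In limma 3.58.1 (R 4.3.3) a model of 12 groups was fitted with the animal as a random block (statmod 1.5.0, consensus correlation 0.222) and trended, robust moderation, and p-values were adjusted by Benjamini-Hochberg over all genes within a comparison. Tests were two-sided. The pairing comes from the animal numbers in the labels; arrays of 1 animal correlated at 0.181 on average after removing group means, against -0.0295 between animals, and 45 of 56 matched their own animal best. The fit was tested on simulated data.

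The members and lists were chosen with earlier results of these data known. Values by animal were given for members called between arms or in a difference of changes, and for the 3 of each role group with the largest called change in the LR12 arm, at most 16 by the smallest adjusted p; 18 qualified. Alternatives were no block, the animal as a fixed term, centring, quantile normalization, an offset of 16, no filter, plain moderation, the poly-A set as a covariate, the second probe set and leaving out each animal; fits within the arrays of low or of high poly-A signal were added after seeing the data.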

Additional observations from a re-analysis of the deposited data

Results flagged for a closer look

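Among 201 groups of 4 or 6 animals, made of the named members' log2 levels and the median member change in an arm at an hour, 15 held 1 animal whose distance to the nearest of the others took up an unusually large part of the range; chance gives about 1 in 20. In the LR12 arm the high values were TRIM22 at hour 0 in Y31313 (11.06), PARP9 in Y31312 at hour 0 (10.84) and at hour 8 (11.27), ISG20 at hour 0 in Y31310 (12.66) and ADAR at hour 8 in Y31313 (12.24). The low ones there were DHX58 at hour 8 in Y31309 (6.22) and OASL at hour 4 in Y31314 (10.18). With the peptide control Y31306 was high at hour 2 for IFIH1 (12.62) and DHX58 (7.97), Y31305 was low at hour 2 for PLSCR1 (10.04), and Y31308 was low for PARP9 at hour 0 (8.95) and for ADAR at hour 4 (10.42). The 3 in the vehicle arm were all low values of Y31302, for EIF2AK2 at hour 8 (7.08), OASL at hour 0 (9.29) and IFI44L at hour 2 (4.58).

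The change from hour 0 differed between LR12 and vehicle for 4 members by limma's test of that difference. The differences were 2.30 for PLSCR1 and -1.49 for IFI16 at hour 2, 1.22 for IFI35 at hour 4 and 1.28 for SAMD9L at hour 8. Of all genes tested, 10.7% were called at hour 2, 2.3% were higher at hour 4 and 0.677% were higher at hour 8.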

How the results depend on the processing

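Counts of members called are given here where they moved by over 1.5 times. With no replicate block, that is without pairing by animal, 0 were called at hour 4 with vehicle, 1 and 0 at hours 4 and 8 with the peptide control, 5 from hour 4 to hour 8 with LR12, 4 between LR12 and vehicle at hour 4, and 0 in the difference of their changes at each of hours 2, 4 and 8; no other count of calls moved that far. The animal as a fixed term within an arm gave 5 at hour 2 with the peptide control and 11 with LR12. Centring gave 0 at hour 8 with the peptide control, 10 and 26 at hours 2 and 4 with LR12, 1 between LR12 and the peptide control at hour 2, 6 between LR12 and vehicle at hour 8 and 4 in the difference of changes at hour 4. Quantile normalization gave 2 between LR12 and vehicle at hour 8 and 1, 2 and 0 in the differences of changes, and the offset gave 3 between LR12 and vehicle at hour 8. Without the filter there were 3 at hour 4 with the peptide control, 0 between LR12 and vehicle at hour 8, and 0 in the differences of changes at hours 2 and 8, where plain moderation gave 1 and 0.

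With the poly-A set as a covariate the counts were 1 at hour 2 with vehicle, 3 at hour 8 with the peptide control, 1 between LR12 and the peptide control at hour 2, 5 between LR12 and vehicle at hour 8, and 2 and 0 in the differences of changes at hours 4 and 8. Low arrays alone gave 1 and 2 at hours 2 and 4 with vehicle, 7 and 4 from hour 2 to 4 and from hour 4 to 8 with LR12, 1 between LR12 and the peptide control at hour 2, 5 and 2 between LR12 and vehicle at hours 4 and 8 and 0 in each difference of changes. High arrays alone gave 2 and 3 at hours 4 and 8 with the peptide control, and 0 from hour 4 to 8 with LR12 and between LR12 and vehicle at hours 4 and 8. The second probe set gave 1, 1 and 0 at hours 2, 4 and 8 with the peptide control, 3 at hour 2, 7 from hour 2 to 4 and 5 from hour 4 to 8 with LR12, 1 between LR12 and the peptide control at hour 4, 3 between LR12 and vehicle at hour 2 and 0 in each difference of changes. Among the named members, values called with the first or the second probe set changed sign between them in 6 cases, and no called value changed sign under another setting: PLSCR1 at hour 4 with the peptide control (-0.14), with LR12 (-0.21) and between LR12 and vehicle (-0.32), IFI16 at hour 8 with LR12 (-0.96), and SAMD9L between LR12 and vehicle at hours 2 (0.0021) and 4 (1.16).

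Leaving out each animal gave 0 to 1 at hour 4 with vehicle, 0 to 7 and 0 to 4 at hours 4 and 8 with the peptide control, and 13 to 18, 6 to 8 and 4 to 9 at hour 4, at hour 8 and from hour 4 to 8 with LR12. Between LR12 and the peptide control it gave 0 to 1 at hours 2 and 4, between LR12 and vehicle 2 to 12 and 0 to 6 at hours 4 and 8, in the differences of changes 0 to 2, 0 to 3 and 0 to 1, and between the peptide control and vehicle 0 to 2, 0 to 1 and 0 to 1 at hours 2, 4 and 8. For the named members 1344 of these values kept their side of the threshold, 78 lost the call and 18 gained it. The causes were not tested. Signal over background limits LY6E, which stayed below the filter. Of the members tested it most limits IFITM1, EPSTI1, OAS1, USP18 and DDX60, above the array median on 14, 35, 37, 37 and 41 of 56 arrays.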
